A study of Homo sapiens with 12 samples.

Results

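Very long genes, here 43 human genes that each cover more than about 300 kb of hg38, were followed in the RNA of 2 colon cancer lines treated with vehicle or with actinomycin D (Act D). The 43 were named in a given list, and their spans in the GENCODE v44 annotation ran from 317 kb for EXT1 to 2242 kb for DMD, so that all 43 met the limit. After leaving out those with a mean under 1 CPM (counts scaled to a common library size) over the 12 libraries, 35 remained. The counts behind these values were split by RSEM among genes that share or overlap sequence, and whether strand was used is not given in the sources used here, so that reads of a gene and of an antisense partner cannot be told apart. The 35 are 35 of the 15692 genes tested and 35 of the 556 genes tested that span over 300 kb. The value just outside the limit was that of PARD3B, at 0.991 CPM, and the value just inside was that of DLG2, at 1.79 CPM. Of the 35, 33 were at 1 CPM or more in the mean of each of the 4 groups, whereas TCF4 and DLG2 passed through 1 line alone.

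The first line was HCT 116p53-/-, a derivative of the HCT116 colorectal carcinoma line in which p53 is deleted. The second was uL3ΔHCT 116p53-/-, which the study describes as a sub-line of the first with stable silencing of the ribosomal protein uL3. The sample labels describe it as P53-/- with RPL3 KO, RPL3 being the gene of uL3. Cell type markers given below differed widely between the lines, and the descent of the second from the first was not tested here. By their labels both lines lack p53, and each was treated with 5 nM Act D for 24 h or with vehicle, with 3 libraries a group that the labels call biological replicates. Values of the second line are given below as those of the libraries labelled RPL3 KO, because RPL3 itself was not lower in them: with vehicle its mean was 1138 ± 15.3 CPM in the first line and 1242 ± 82.5 CPM in the second (SD, n = 3 each; log2 fold change 0.13, adjusted p = 0.155 in edgeR's quasi-likelihood test).

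RNA polymerase II takes hours to cross a very long gene, almost all of which is intron, so that the output of such a gene depends on elongation that is not interrupted, on topoisomerases that relieve supercoils ahead of the polymerase and on splicing factors that keep the polymerase from ending early at intronic sites. Several very long genes, FHIT and WWOX among them, lie at common fragile sites, where replication and transcription of the same long stretch of DNA can meet. Act D inserts itself between the bases of GC-rich DNA and blocks the polymerase; at low doses it acts first on RNA polymerase I and rRNA synthesis.

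The deposited RSEM expected counts summed to between 10087925 and 21138886 per library, where 3 counts corresponded to between 0.15 and 0.348 CPM. Correlations between libraries of a group were between 0.985 and 0.993 on log2 values of CPM. Genes of the mitochondrial genome took 7.98 to 9.51% of the counts in HCT 116p53-/- cells with vehicle and 10.5 to 12.1% with Act D. In the libraries labelled RPL3 KO the same share was 4.57 to 6.28% with vehicle and 7.10 to 9.83% with Act D. It was thus higher in every Act D library than in the vehicle libraries of the same line, beside each Act D comparison below, and its part in them was not tested. Leaving the mitochondrial genes out of the counts and library sizes, a setting added once the data had been seen, left 26 members lower in HCT 116p53-/- cells in place of 26 and 8 members called in the libraries labelled RPL3 KO in place of 10. In bulk RNA of this kind, fewer cells of a type and less RNA per cell cannot be told apart. Of 11 markers of colon epithelium, the labelled tissue, 6 reached 1 CPM with vehicle in HCT 116p53-/- cells. There KRT20, LGALS4 and VIL1 had means of 0.897, 0.194 and 0.023 CPM, and CDX1 and CDH17 were at 0. In the libraries labelled RPL3 KO 4 of the 11 reached 1 CPM with vehicle.

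The make-up of the 35 members was set beside that of other long genes. Their exons covered a median of 1.55% of the span (0.441 to 8.58%), a share that the choice by span lowers by itself, and the median summed length of the exons was 10700 bases, against 11000 over the 518 other genes of over 300 kb and 5010 over all genes tested with an annotated span. The median GC content of the span was 39.4%, against 39.1% over the other genes of over 300 kb and 45.0% over all genes tested, and MAD1L1, which encodes the spindle checkpoint protein MAD1, had the highest of the 35, at 55.7%. The largest number of exons in 1 transcript was 19 in the median, against 16 over the other genes of over 300 kb and 8 over all genes tested, and reached 62 in VPS13B. The members were expressed above the other long genes, with a median of the mean CPM of 25.5 against 7.29, so that their changes were measured with more counts. Per transcript length, in the deposited TPM, which divides by transcript length, PTK2, the gene of focal adhesion kinase, was the highest with a mean over the 12 libraries of 28.9 TPM, followed by FAF1 with 19.1, FTO with 13.4, VTI1A with 12.9 and MAD1L1 with 12.9 TPM. DLG2, a scaffold of synapses, was the lowest of the 35 with 0.663 TPM.

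Promoter sequences are shown for the members that fell most with Act D in HCT 116p53-/- cells, MAD1L1 and MAGI1, and for SMYD3 and FBXL17, the uncalled members with the smallest standard errors, to set the start sites of genes that moved beside those of genes that were not called. They hold 250 bases before to 50 bases after the start of the gene in RefSeq (GRCh38.p14), read 5′ to 3′ on the gene's strand, which is the minus strand for all 4. Capitals mark the GC box, searched for as GGGCGG on the printed strand and as CCGCCC for the opposite strand, a motif of GC-rich DNA.
MAD1L1 promoter: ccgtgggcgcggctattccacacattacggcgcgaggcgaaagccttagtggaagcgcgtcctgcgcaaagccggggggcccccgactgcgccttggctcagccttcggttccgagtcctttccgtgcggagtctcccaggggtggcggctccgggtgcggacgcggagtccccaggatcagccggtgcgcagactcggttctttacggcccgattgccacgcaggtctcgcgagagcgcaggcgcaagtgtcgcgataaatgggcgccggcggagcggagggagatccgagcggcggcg
MAGI1 promoter: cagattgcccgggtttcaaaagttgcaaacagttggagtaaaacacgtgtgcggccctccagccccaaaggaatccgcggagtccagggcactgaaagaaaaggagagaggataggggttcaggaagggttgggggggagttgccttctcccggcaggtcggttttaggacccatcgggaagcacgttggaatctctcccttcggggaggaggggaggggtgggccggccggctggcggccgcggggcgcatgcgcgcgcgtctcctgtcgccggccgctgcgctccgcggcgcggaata
SMYD3 promoter: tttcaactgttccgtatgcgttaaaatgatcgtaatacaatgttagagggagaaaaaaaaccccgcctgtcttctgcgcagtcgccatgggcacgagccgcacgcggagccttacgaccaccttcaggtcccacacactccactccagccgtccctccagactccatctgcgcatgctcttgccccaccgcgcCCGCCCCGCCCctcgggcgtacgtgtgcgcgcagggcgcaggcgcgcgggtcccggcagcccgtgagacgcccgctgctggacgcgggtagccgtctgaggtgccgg
FBXL17 promoter: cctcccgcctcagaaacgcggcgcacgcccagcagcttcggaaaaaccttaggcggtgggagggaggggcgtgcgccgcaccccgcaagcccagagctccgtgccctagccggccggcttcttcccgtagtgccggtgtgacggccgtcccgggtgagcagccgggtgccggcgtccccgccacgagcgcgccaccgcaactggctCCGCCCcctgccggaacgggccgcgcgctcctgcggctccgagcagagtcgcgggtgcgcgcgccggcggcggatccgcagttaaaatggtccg
The 300 bases lie at chr7:2232896-2233195 for MAD1L1, chr3:66038869-66039168 for MAGI1, chr1:246507230-246507529 for SMYD3 and chr5:108382049-108382348 for FBXL17. No GC box was found in the windows of MAD1L1 and MAGI1, although 69.3% and 64.7% of their bases were G or C, whereas the windows of SMYD3 and FBXL17 held 2 and 1. Of the 35 members, 29 had a promoter in the RefSeq table, and 15 of these (51.7%) held at least 1 GC box on either strand. The share was 69.6% over the 11319 promoters matched to genes tested and 45.0% over all 35116 promoters of the table. Among the members the box was found in 10 of 21 promoters of genes that fell in HCT 116p53-/- cells (47.6%) and in 5 of 8 of those not called (62.5%).

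The first comparison asks whether Act D changed the transcripts of very long genes in HCT 116p53-/- cells. Of the 35 members, 26 were lower with Act D and 0 were higher at an adjusted p under 0.05 in the quasi-likelihood test of edgeR, adjusted over all 15692 genes, where 11.1% of all genes were lower, 7.59% higher and 18.7% either. DESeq2 called the same number, 26 lower and 0 higher. No member was higher at an unadjusted p under 0.05 in the edgeR test. The median log2 fold change of the members was -0.44, against 0.02 over all genes tested. Their quartiles were -0.78 and -0.27. Among the 518 other genes of over 300 kb, 33.2% were lower and 0.965% higher, with a median of -0.33. These 518, here and below, were not cut at 1 CPM, and their lowest mean was 0.333 CPM. Their median of the mean CPM was 7.29 against 25.5 for the members, so that the shares called were not taken at equal counts. The 3 libraries with Act D lay entirely below the 3 with vehicle for 25 of the 35 members, against 20.0% of all genes tested, and entirely above for 1, TCF4, against 18.2%. Summed over the 35 members, expression was 1238, 1205 and 1257 CPM with vehicle and 737, 726 and 795 CPM with Act D, without overlap. Of the 26 calls, 16 held in each of the 20 alternative analyses, and the number called was between 18 and 26 when 1 library was left out.

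**Figure D1:**
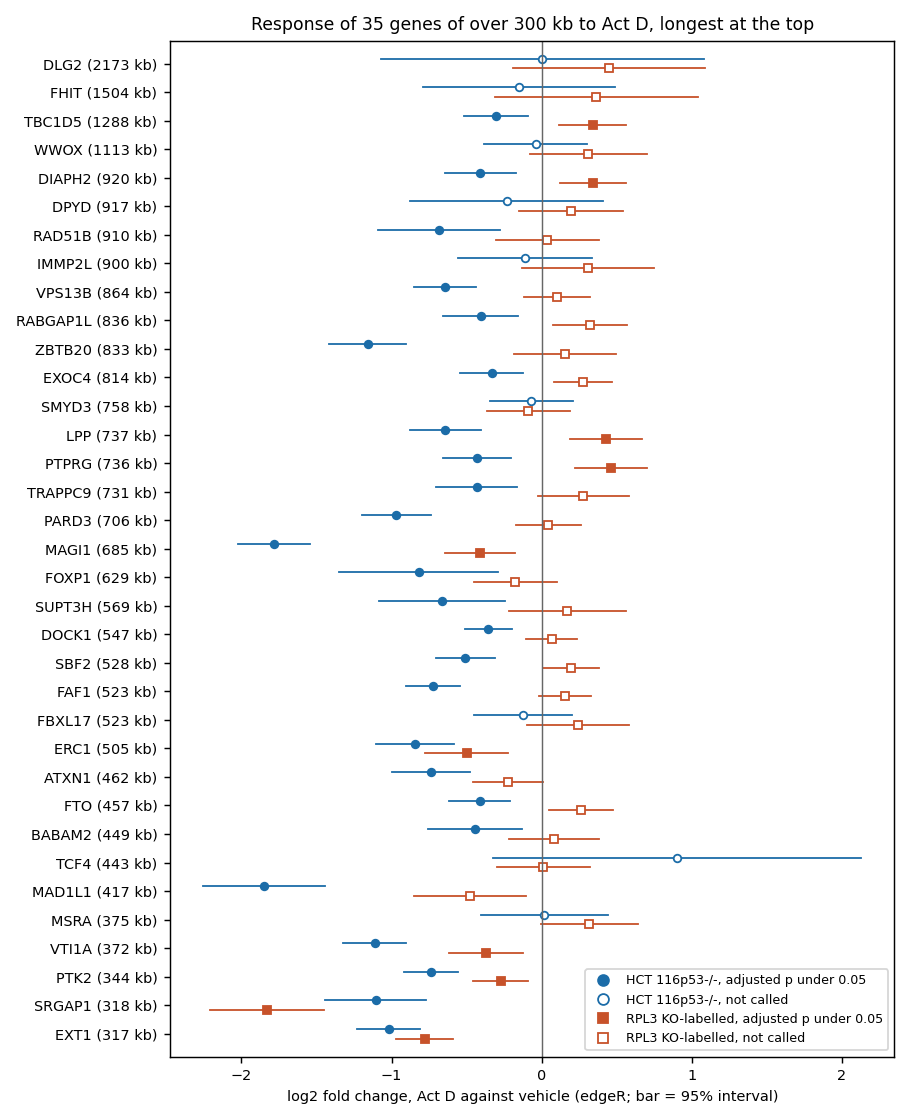
Each row is 1 of the 35 genes, ordered by genomic span with the longest at the top, and the x axis is the log2 fold change with Act D against vehicle from edgeR. Blue circles are HCT 116p53-/- cells and orange squares the libraries labelled RPL3 KO, bars are 95% intervals, and filled symbols have an adjusted p under 0.05. In HCT 116p53-/- cells 26 filled circles lie left of 0, and the orange squares lie on both sides of it, with 6 filled to the left and 4 to the right.

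All 9 members kept that act in cell polarity, adhesion and the cytoskeleton were lower with Act D in HCT 116p53-/- cells, with a median of -0.74. Over all genes tested 11.1% were lower, and over the 518 other genes of over 300 kb 33.2%. Of the 35 members 26 were lower, so that each role here and below belongs to a set that mostly fell. MAGI1 (ENSG00000151276, chromosome 3, 65353525 to 66038918, minus strand), a scaffold of tight junctions, was at 63.5, 61.1 and 64.0 CPM with vehicle and at 16.5, 19.8 and 18.6 CPM with Act D. The groups were far apart, and the log2 fold change was -1.78 (SE 0.12, adjusted p = 3.26e-08), a level 3.44-fold lower. SRGAP1 (ENSG00000196935, chromosome 12, 63843761 to 64162217, plus strand), a GTPase-activating protein that acts downstream of the Slit receptors, fell from 41.0, 39.2 and 47.5 CPM to 17.9, 17.3 and 24.4 CPM, a log2 fold change of -1.11 (SE 0.16, adjusted p = 9.36e-05). EXT1 (ENSG00000182197, chromosome 8, 117794490 to 118111826, minus strand), a polymerase of heparan sulfate chains, was at 25.5, 25.5 and 24.8 CPM and at 10.96, 13.1 and 13.4 CPM, with a log2 fold change of -1.02 (SE 0.10, adjusted p = 2.08e-06). In neither gene did a treated library reach the level of an untreated one. PARD3 (ENSG00000148498, chromosome 10, 34109560 to 34815325, minus strand), the scaffold of the Par polarity complex, was at 43.2, 42.4 and 37.1 CPM and then at 22.8, 19.0 and 20.8 CPM, a log2 fold change of -0.97 (SE 0.11, adjusted p = 8.55e-06). PTK2 (ENSG00000169398, chromosome 8, 140657900 to 141002216, minus strand), focal adhesion kinase, was at 111, 114 and 118 CPM and at 64.2, 65.2 and 76.6 CPM (-0.74, adjusted p = 1.26e-05). The other 4 of the group fell less. The log2 fold change was -0.64 (adjusted p = 0.000598) for LPP, a LIM domain protein of focal adhesions, -0.43 (adjusted p = 0.00946) for the receptor tyrosine phosphatase PTPRG, -0.41 (adjusted p = 0.0161) for the actin-nucleating formin DIAPH2 and -0.35 (adjusted p = 0.0026) for the Rac activator DOCK1.

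All 8 members of vesicle traffic were lower with Act D in HCT 116p53-/- cells as well, with a median of -0.47. The share lower was 11.1% over all genes tested and 33.2% over the other genes of over 300 kb. VTI1A (ENSG00000151532, chromosome 10, 112446998 to 112818744, plus strand), a SNARE of the trans-Golgi network and endosomes, was at 109, 103 and 106 CPM with vehicle and at 47.0, 42.6 and 57.1 CPM with Act D, a log2 fold change of -1.11 (SE 0.10, adjusted p = 8.75e-07). ERC1 (ENSG00000082805, chromosome 12, 990509 to 1495933, plus strand), a scaffold of vesicle docking sites at the cell cortex, was at 40.2, 39.5 and 45.2 CPM and at 22.4, 23.3 and 24.1 CPM (-0.84, adjusted p = 0.00011). VPS13B (ENSG00000132549, chromosome 8, 99013266 to 99877580, plus strand), a lipid transfer protein of the Golgi, was at 58.3, 57.2 and 64.1 CPM and at 38.9, 35.8 and 40.3 CPM (-0.65, adjusted p = 0.000152). For these 3 genes all treated libraries were below all untreated ones. Lower as well were SBF2, a member of the myotubularin family, at -0.51 (adjusted p = 0.000833), TRAPPC9, a subunit of a Golgi tethering complex, at -0.43 (adjusted p = 0.0257), RABGAP1L, a Rab GTPase-activating protein, at -0.41 (adjusted p = 0.0236) and EXOC4, a subunit of the exocyst, at -0.33 (adjusted p = 0.026) on the log2 scale. The smallest fall of the 26 was that of TBC1D5, which acts on Rab GTPases with the retromer, at -0.30 (adjusted p = 0.042), and this call was kept in 9 of the 20 alternatives.

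Among the 7 nuclear regulators kept, 5 were lower and 2 were not called, where 11.1% of all genes were lower. ZBTB20 (ENSG00000181722, chromosome 3, 114314500 to 115147292, minus strand), a zinc finger repressor of transcription, was at 126, 111 and 119 CPM with vehicle and at 51.6, 53.1 and 55.2 CPM with Act D, a log2 fold change of -1.16 (SE 0.12, adjusted p = 3.46e-06). No treated library came near an untreated one. FOXP1, a forkhead transcription factor, was low in this line, at 1.69, 3.31 and 2.90 CPM and at 1.18, 1.62 and 1.69 CPM, and its libraries overlapped between the groups (-0.82, adjusted p = 0.0305). ATXN1, a partner of a transcriptional repressor, was lower at -0.73 (adjusted p = 0.00041), as were SUPT3H, a subunit of a histone acetyltransferase complex, at -0.66 (adjusted p = 0.0263) and the RNA demethylase FTO at -0.41 (adjusted p = 0.00617). The lysine methyltransferase SMYD3 had -0.07 (adjusted p = 0.773) and the bHLH factor TCF4 0.90 (adjusted p = 0.316), the latter from 9 counts with vehicle and 16 with Act D over the 3 libraries of each group.

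Of the 7 members of genome maintenance, protein turnover and metabolism, 4 were lower, against 11.1% of all genes tested. MAD1L1 (ENSG00000002822, chromosome 7, 1815793 to 2233243, minus strand) had the largest fitted fall of the 35, from 17.7, 28.7 and 22.6 CPM to 6.79, 6.02 and 6.27 CPM, a log2 fold change of -1.85 (SE 0.19, adjusted p = 3.3e-06). Its untreated libraries varied more than its treated ones, and no treated library came near them. FAF1 (ENSG00000185104, chromosome 1, 50437028 to 50960267, minus strand), an adaptor that brings ubiquitinated proteins to the VCP segregase, was at 52.8, 57.4 and 58.5 CPM and at 34.0, 32.6 and 35.5 CPM (-0.72, adjusted p = 1.18e-05). RAD51B, which acts in homologous recombination, was lower at -0.68 (adjusted p = 0.0198) and BABAM2, a subunit of the BRCA1-A complex, at -0.44 (adjusted p = 0.0437). The ubiquitin ligase receptor FBXL17 had -0.13 (adjusted p = 0.634), DPYD, which breaks down pyrimidines and 5-fluorouracil, -0.23 (adjusted p = 0.657) and MSRA, which reduces oxidized methionine, 0.02 (adjusted p = 0.968).

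None of the 4 genes kept from the common fragile site group was called with Act D in HCT 116p53-/- cells, where 11.1% of all genes were lower. The groups by role were set up here without overlap. Whether members of the other groups also lie at such sites was not tested, so the 4 do not stand for all fragile site genes. The median of the 4 was -0.07. They were among the low members, with means over the 12 libraries of 1.79 to 6.77 CPM against a median of 25.5 CPM, and the part of expression was not tested. WWOX (ENSG00000186153, chromosome 16, 78099400 to 79212667, plus strand), an oxidoreductase with WW domains, was at 8.36, 8.54 and 8.997 CPM with vehicle and at 10.1, 7.17 and 7.88 CPM with Act D, so that the groups overlapped (-0.04, 95% interval -0.38 to 0.30, adjusted p = 0.908). FHIT (ENSG00000189283, chromosome 3, 59747277 to 61251459, minus strand), a diadenosine phosphate hydrolase, was at 2.53, 2.00 and 2.66 CPM and at 2.12, 2.57 and 1.77 CPM (-0.15, 95% interval -0.79 to 0.49, adjusted p = 0.789). IMMP2L, a subunit of a peptidase of the mitochondrial inner membrane, had -0.11 with an interval of -0.56 to 0.34. DLG2 (ENSG00000150672, chromosome 11, 83455012 to 85628335, minus strand) was at 0.454, 0.207 and 0.302 CPM and at 0.374, 0.271 and 0.322 CPM, 3 to 7 counts a library, and its interval of -1.07 to 1.08 was the second widest of the 35. The intervals of all 4 hold the -0.30 fitted for TBC1D5, so that a fall of that size is not excluded in them. The median of the 35 members, -0.44, lies inside the intervals of FHIT, IMMP2L and DLG2 and outside that of WWOX.

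**Figure D2:**
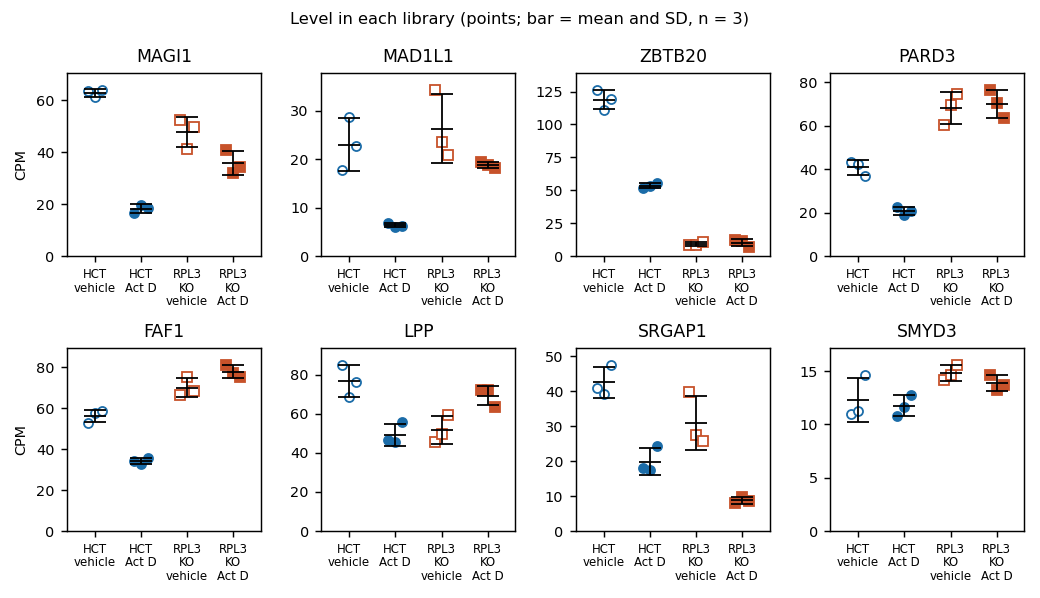
Each panel is 1 gene, with CPM on the y axis from 0 and the 4 groups on the x axis; open symbols are vehicle, filled symbols Act D, circles HCT 116p53-/- cells and squares the libraries labelled RPL3 KO, and bars give the mean and SD of 3 libraries. In HCT 116p53-/- cells the filled circles of MAGI1, MAD1L1, ZBTB20, PARD3, FAF1, LPP and SRGAP1 lie below the open ones, those of SMYD3 overlap them, and among the libraries labelled RPL3 KO SRGAP1 shows a gap of similar size.

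Across all genes tested with an annotated span, the fold change in HCT 116p53-/- cells was lower in the longer classes. The median log2 fold change was 0.09 among 3767 genes of up to 10 kb, 0.11 among 4119 of 10 to 30 kb, close to 0 (0.005) among 4809 of 30 to 100 kb, -0.21 among 2373 of 100 to 300 kb and -0.35 among 556 of over 300 kb. The share called lower was 4.54, 4.71, 9.79, 30 and 35.6% in the same order, and the share called higher 8.89, 11.9, 6.34, 2.06 and 0.899%. Spearman's rho between span and fold change was -0.27 over 15624 genes. With GC content rho was 0.08, with exonic length -0.18 and with mean CPM -0.01. These are descriptions across genes of the same 6 libraries, and genes are not independent replicates. Among genes with a mean of at least 5 CPM, a limit set once the values were known, the class of over 300 kb had a median of -0.44 and 54.7% of its 329 genes were lower.

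Above 300 kb the medians lay closer to 0 in the longer classes. The median in HCT 116p53-/- cells was -0.39 among 371 genes of 300 to 500 kb, -0.33 among 159 of 500 to 1000 kb and -0.18 among 26 of over 1000 kb. Among the members, 8 of 10 of 300 to 500 kb, 17 of 21 of 500 to 1000 kb and 1 of 4 kept of over 1000 kb were lower. Over all genes tested of these classes, 38.5, 32.1 and 15.4% were lower. The medians of the members were -0.74, -0.51 and -0.09. Spearman's rho between span and fold change over the 35 was 0.44, positive where that over all genes was negative. The largest falls were in genes of 417 kb (MAD1L1) and 685 kb (MAGI1), and DLG2, FHIT and WWOX, of 2173, 1504 and 1113 kb, were not called. Between mean CPM and fold change Spearman's rho was -0.52 over the 35, the fold change being lower in members with more reads, and the part that expression has in the order by span was not tested.

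**Figure D3:**
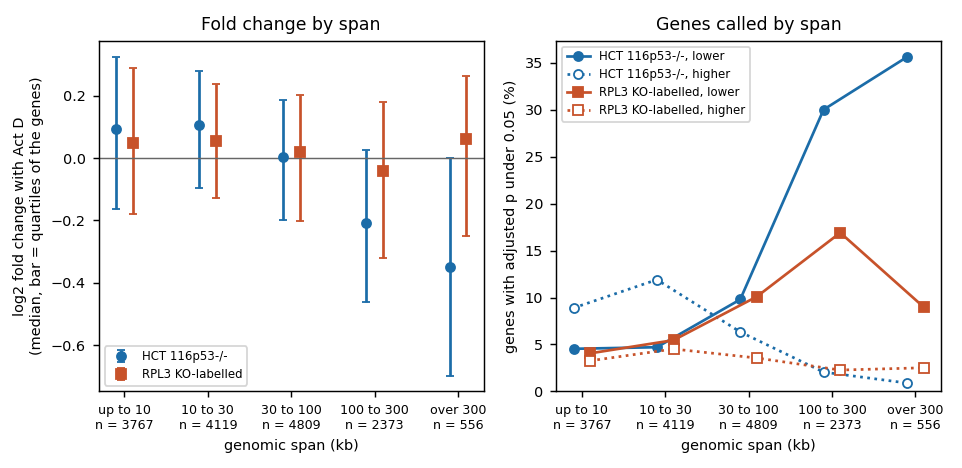
The left panel gives the median log2 fold change with Act D and the quartiles of the genes in 5 classes of genomic span, and the right panel the percentage of genes of each class called lower (solid lines) or higher (dotted lines) at an adjusted p under 0.05. In HCT 116p53-/- cells (circles) the share called lower rises from 4.54% in the shortest class to 35.6% over 300 kb, and in the libraries labelled RPL3 KO (squares) it is 16.9% at 100 to 300 kb and 8.99% over 300 kb.

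In the libraries labelled RPL3 KO the same comparison gave calls in both directions. Of the 35 members, 6 were lower with Act D and 4 were higher at an adjusted p under 0.05 in the edgeR test, where 8.40% of all genes were lower, 3.51% higher and 11.9% either. The 3 treated libraries lay all below the untreated ones for 8 members and all above for 10, against 14.8% and 12.8% of all genes. The median of the members was 0.15, against 0.03 over all genes, and that of the 518 other genes of over 300 kb was 0.05, with 8.49% lower and 1.93% higher. How they divided changed with the scaling, since the upper quartile gave 7 higher and 3 lower, and library size alone 1 higher and 7 lower. Library size alone moved the median of all genes to -0.07 from 0.03 and left the median of the members at 0.06. Single libraries also carried calls, since the number called was 3 without replicate 1 with vehicle, 5 without replicate 1 with Act D, 4 without replicate 2 with Act D and 5 without replicate 3 with Act D, all of the libraries labelled RPL3 KO. It was 6 without vehicle replicate 2 or Act D replicate 1 of HCT 116p53-/- cells. The calls of SRGAP1 and EXT1 alone held in all 20 alternatives.

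The 6 members that were lower in the libraries labelled RPL3 KO had also been lower in HCT 116p53-/- cells. SRGAP1 was at 39.8, 27.4 and 25.8 CPM with vehicle and at 7.93, 9.82 and 8.46 CPM with Act D, a log2 fold change of -1.83 (SE 0.18, adjusted p = 6.3e-06). EXT1 was at 76.9, 85.7 and 85.1 CPM and at 50.3, 48.4 and 45.6 CPM, a log2 fold change of -0.78 (SE 0.09, adjusted p = 2.49e-05). In both genes the groups were apart by more than the spread of either. ERC1 went from 30.4, 22.0 and 26.9 CPM to 19.1, 21.0 and 15.7 CPM (-0.50, adjusted p = 0.0175), with the highest treated library just under the lowest untreated one. MAGI1 went from 52.5, 41.3 and 49.8 CPM to 40.9, 32.0 and 34.2 CPM (-0.41, adjusted p = 0.022), and here the closest libraries nearly met. VTI1A was at 21.2, 21.9 and 21.3 CPM and at 15.3, 18.6 and 16.2 CPM (-0.37, adjusted p = 0.0467), and PTK2 was at 157, 141 and 151 CPM and at 133, 118 and 121 CPM (-0.27, adjusted p = 0.0457). The VTI1A call was kept in 8 and the PTK2 call in 10 of the 20 alternatives. MAD1L1, whose fall in HCT 116p53-/- cells was the largest, went from 34.3, 23.6 and 20.9 CPM to 19.4, 18.8 and 18.1 CPM and was not called (-0.47, adjusted p = 0.0946).

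The 4 members that were higher with Act D in the libraries labelled RPL3 KO were PTPRG, LPP, DIAPH2 and TBC1D5, all of which had been lower in HCT 116p53-/- cells. PTPRG (ENSG00000144724, chromosome 3, 61561569 to 62297609, plus strand) was at 64.2, 60.0 and 60.7 CPM with vehicle and at 46.5, 41.5 and 49.5 CPM with Act D in HCT 116p53-/- cells, and at 25.6, 31.1 and 34.5 CPM and 44.6, 44.2 and 37.0 CPM in the libraries labelled RPL3 KO. Its libraries with Act D were thus all lower in the first line and all higher in the second, where the log2 fold change was 0.46 (SE 0.11, adjusted p = 0.0116). LPP (ENSG00000145012, chromosome 3, 188153284 to 188890671, plus strand) was at 85.2, 68.8 and 76.2 CPM and at 46.4, 45.6 and 55.7 CPM in HCT 116p53-/- cells, and at 45.5, 49.7 and 59.6 CPM and 72.1, 72.4 and 63.8 CPM in the libraries labelled RPL3 KO, with 0.43 (SE 0.11, adjusted p = 0.0196) in the latter. The same turn was seen in DIAPH2 (ENSG00000147202, chromosome X, 96684712 to 97604997, plus strand), at 20.3, 18.1 and 19.1 CPM and 14.6, 15.5 and 13.2 CPM in the first line and at 26.1, 31.0 and 32.0 CPM and 37.8, 40.1 and 35.4 CPM in the second (0.34, adjusted p = 0.042). For TBC1D5 (ENSG00000131374, chromosome 3, 17157162 to 18444817, minus strand) the values were 44.7, 46.4 and 49.4 CPM and 40.3, 37.7 and 35.8 CPM in the first line and 18.7, 22.2 and 24.4 CPM and 29.2, 27.1 and 26.4 CPM in the second (0.34, adjusted p = 0.0477). The rises of DIAPH2 and TBC1D5 were called in 5 and 4 of the 20 alternatives, those of LPP and PTPRG in 15 and 18.

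The difference between the responses of the lines was then tested itself, as an interaction in the same edgeR fit. For 18 of the 35 members the log2 fold change with Act D was higher in the libraries labelled RPL3 KO than in HCT 116p53-/- cells and for 0 it was lower, where 3.30% of all genes were higher, 3.23% lower and 6.53% either. SRGAP1 alone was lower at an unadjusted p under 0.05 in edgeR, and it was called lower in 3 of the 19 alternatives, which were DESeq2, no count filter, and the fit without vehicle replicate 3 of the libraries labelled RPL3 KO. The median difference over the members was 0.64, against -0.01 over all genes and 0.39 over the 518 other genes of over 300 kb, of which 15.8% were higher. Of the 18 calls, 14 held in all 19 alternatives, while that of TBC1D5 held in 18, those of PTK2 and TRAPPC9 in 9 and that of DOCK1 in 8. By role, 7 of 9 members of polarity, adhesion and the cytoskeleton and 7 of 8 of vesicle traffic were higher. So were 2 of 7 nuclear regulators and 2 of 7 of genome maintenance, protein turnover and metabolism. In the group set up here as fragile site genes it was 0 of 4, with differences between 0.35 and 0.51.

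The smallest p-values of this difference were those of MAGI1, FAF1, PARD3 and LPP. MAGI1 had a difference of 1.37 (SE 0.16, adjusted p = 9.76e-05), with falls in both lines of unequal size. FAF1 had 0.88 (SE 0.12, adjusted p = 0.000385): its CPM in the libraries labelled RPL3 KO was 66.3, 75.3 and 68.3 with vehicle and 81.1, 77.0 and 75.4 with Act D, all 3 treated libraries above the untreated ones though not called (0.15, adjusted p = 0.26). PARD3 had 1.01 (SE 0.15, adjusted p = 0.000821), and its CPM was 60.3, 69.8 and 74.5 with vehicle and 76.6, 70.6 and 63.7 with Act D, which overlap. For LPP the difference was 1.07 (SE 0.16, adjusted p = 0.00088). The differences of ZBTB20, 1.31 (SE 0.20, adjusted p = 0.00102), and of MAD1L1, 1.38 (SE 0.26, adjusted p = 0.0043), were near that of MAGI1 in size. SRGAP1 was not called, at -0.72 (adjusted p = 0.0836). SMYD3, called in neither line, had -0.02 (adjusted p = 0.975) with a 95% interval of -0.41 to 0.37.

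Summed over the 35 members, expression in the libraries labelled RPL3 KO was 1068, 1111 and 1153 CPM with vehicle and 1146, 1091 and 1036 CPM with Act D, so that the groups overlapped, whereas the sum in HCT 116p53-/- cells with Act D was below every one of these. Without TCF4 and DLG2 the means were 1233 ± 26.1 and 752 ± 36.8 CPM in HCT 116p53-/- cells with vehicle and Act D, and 1080 ± 36.3 and 1059 ± 52.7 CPM in the libraries labelled RPL3 KO (SD, n = 3 each). Across the 35 members the log2 fold changes of the lines kept a common order, with a Spearman's rho of 0.66 against 0.25 over all genes tested. The 2 sets were not matched for expression, with a median of the mean CPM of 25.5 over the members and 15.7 over all genes. The part of expression in this contrast was not tested. As a description over span, rho was 0.66 over the members in the libraries labelled RPL3 KO, and -0.09 over 15624 genes. By class of span the median there was 0.05, 0.06, 0.02, -0.04 and 0.06 from the shortest to the longest class, the last of which became -0.04 when library size alone was used. The share called lower was 16.9% at 100 to 300 kb and 8.99% over 300 kb.

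The lines were next compared with vehicle, to show where the members stood before Act D. In the libraries labelled RPL3 KO, 14 of the 35 members were higher and 13 lower than in HCT 116p53-/- cells at an adjusted p under 0.05 in the edgeR test, where 35.1% of all genes were higher, 36.2% lower and 71.3% either. TCF4 and DLG2 were kept through the line in which they were high, and without them 12 of 33 were higher and 13 lower. The 3 libraries of the second line lay all above those of the first for 16 members and all below for 13, against 35.5% and 37.0% of all genes. The members' shares called, 40.0% and 37.1%, were thus near those of all genes. Scaling by library size alone gave 11 higher and 14 lower. Markers moved with the line as well: E-cadherin (CDH1), which holds epithelial cells together, had means with vehicle of 66.8 CPM in the first line and 0.445 CPM in the second. Vimentin (VIM), a filament protein of mesenchymal cells, had means of 22.0 and 2237 CPM. The colon epithelium list of 11 genes summed to 2480 to 2682 CPM in the first and 1591 to 1784 CPM in the second, with 6 and 4 genes at 1 CPM or more. The mesenchymal list of 9 genes summed to 28.2 to 34.6 and 2282 to 2356 CPM, with 2 and 5, and most of the latter was VIM. EPCAM, KRT8, KRT19, KRT20 and CDX2 were called lower in the second line like CDH1, and COL3A1, LUM and PDGFRB higher like VIM. The other way went KRT18, higher at 0.47 (adjusted p = 2.28e-05, edgeR), and COL1A1, lower at -0.88 (adjusted p = 0.0018). DCN and LUM of the mesenchymal list were at 0 in HCT 116p53-/- cells with vehicle, and at means of 0.0842 and 10.5 CPM in the second line, where DCN was thus near 0 as well. The endothelial list of 5 and the haematopoietic list of 4 summed to at most 1.62 CPM in every vehicle library. The part that cell identity has in the members' differences was not tested, and neither was the descent of the second line from the first.

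The largest differences upward were in genes with low levels in HCT 116p53-/- cells. TCF4 (ENSG00000196628, chromosome 18, 55222185 to 55664787, minus strand), a bHLH factor known for its role in neural and mesenchymal cells, was at 0.259, 0.207 and 0.121 CPM in HCT 116p53-/- cells and at 23.5, 27.4 and 34.2 CPM in the libraries labelled RPL3 KO, 9 against 1346 counts, a ratio of 147 (95% counting interval 77.4 to 323 at equal depth). FOXP1 (ENSG00000114861, chromosome 3, 70954693 to 71583978, minus strand) was at 1.69, 3.31 and 2.90 CPM and at 46.0, 52.4 and 57.7 CPM, a log2 fold change of 4.31 (SE 0.17, adjusted p = 2.34e-13). DPYD (ENSG00000188641, chromosome 1, 97077743 to 97995000, minus strand) was at 1.62, 1.24 and 1.69 CPM and at 19.4, 23.0 and 19.6 CPM (3.76, adjusted p = 3.51e-11). In all 3 genes every library labelled RPL3 KO was above every HCT 116p53-/- library. DLG2 was at 2.01, 2.55 and 3.65 CPM in the libraries labelled RPL3 KO, from 15 against 130 counts, a ratio of 8.54 (4.99 to 15.7). MSRA (ENSG00000175806, chromosome 8, 10054292 to 10428891, plus strand) was at 2.46, 2.41 and 2.96 CPM and at 10.8, 10.9 and 9.59 CPM (1.99, adjusted p = 1.04e-08), and EXT1 was 3.27-fold higher (1.71, adjusted p = 1.33e-11).

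The largest differences downward were in ZBTB20, VTI1A, DOCK1, TRAPPC9 and VPS13B. ZBTB20 was at 8.35, 8.61 and 10.7 CPM in the libraries labelled RPL3 KO, 12.9-fold below HCT 116p53-/- cells, with a log2 fold change of -3.69 (SE 0.14, adjusted p = 1.36e-13). VTI1A was 4.92-fold lower (-2.30, adjusted p = 1.66e-12), with none of its 6 libraries near the other line. DOCK1 (ENSG00000150760, chromosome 10, 126905409 to 127452517, plus strand) was at 105, 102 and 101 CPM in HCT 116p53-/- cells and at 33.7, 34.0 and 36.4 CPM in the libraries labelled RPL3 KO (-1.57, adjusted p = 4.11e-12). TRAPPC9 (ENSG00000167632, chromosome 8, 139727725 to 140458579, minus strand) was at 21.5, 21.9 and 29.2 CPM and at 10.8, 10.8 and 9.93 CPM (-1.21, adjusted p = 2.63e-07), and VPS13B at 23.7, 27.4 and 30.1 CPM in the libraries labelled RPL3 KO (-1.14, adjusted p = 1.01e-08). In all 5 genes the 3 libraries of each line were apart. Of the 8 vesicle traffic genes 5 were lower and 2 higher, where 36.2% and 35.1% of all genes were. The 2 were EXOC4 at 1.18 (adjusted p = 3.85e-09) and SBF2 at 0.41 (adjusted p = 0.000539), while RABGAP1L was not called, at 0.22 (adjusted p = 0.104).

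**Figure D4:**
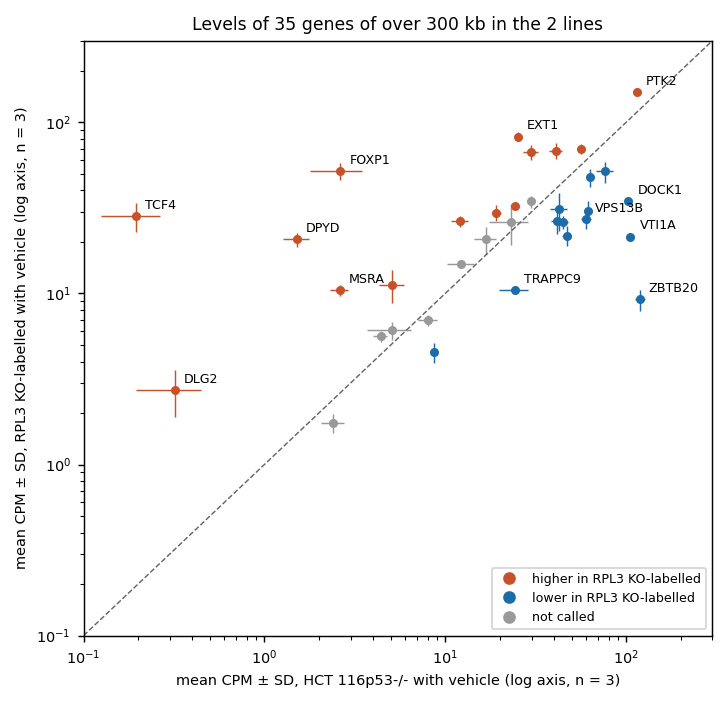
Each point is 1 of the 35 genes, with its mean CPM in HCT 116p53-/- cells on the x axis and in the libraries labelled RPL3 KO on the y axis, both with vehicle and on log axes; bars are the SD of 3 libraries and the dashed line marks equal levels. TCF4, FOXP1, DPYD, DLG2 and MSRA lie far above the line and ZBTB20 and VTI1A far below it, and 8 grey points near it were not called.

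With Act D in both lines, the second line was above HCT 116p53-/- cells in 21 of the 35 members and below them in 9 (edgeR, adjusted p under 0.05), where 35.1% of all genes were higher, 35.3% lower and 70.4% either. Without TCF4 and DLG2 it was above in 19 of 33 and below in 9. The libraries lay all above for 22 members and all below for 9, against 36.5% and 37.6% of all genes. The median over the members was 0.85 with Act D and 0.27 with vehicle, and over all genes tested it was -0.02 in both. This comparison shares its libraries with the Act D comparisons above, so that it restates the same values against another group. MAGI1, -0.40 with vehicle, was 0.97 (adjusted p = 8.74e-07) with Act D. LPP, at -0.57 with vehicle, was 0.50 (adjusted p = 0.000827) with Act D, and MAD1L1, not called with vehicle (0.18), was 1.56 (adjusted p = 1.64e-06). ZBTB20, VTI1A, DOCK1 and SRGAP1 were still lower in the libraries labelled RPL3 KO, with log2 fold changes of -2.38, -1.55, -1.14 and -1.19 and adjusted p-values of 9.58e-11, 9.81e-10, 4.82e-10 and 1.71e-05.

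Besides counts, the RSEM files give for each gene the mean length of its transcripts weighted by their abundance, which moves when the mixture of long and short isoforms does. With Act D, 0 of the 35 members changed in this length at an adjusted p under 0.05 in limma in either line, where 0.12% of genes were called in HCT 116p53-/- cells and 0.0225% in the libraries labelled RPL3 KO. At an unadjusted p under 0.05 there were 4 members in the first line and 5 in the second. The standard errors of the members reached 0.40 on the log2 scale (FHIT), so that changes of that size could be missed. The smallest adjusted p in HCT 116p53-/- cells was that of TCF4, at 0.152, where the length was greater with Act D by 1.15 on the log2 scale. This rests on 2 to 6 counts a library. The other 3 with an unadjusted p under 0.05 were shorter with Act D. ERC1 was at 8141 ± 486 bases with vehicle and 5254 ± 715 bases with Act D in HCT 116p53-/- cells (adjusted p = 0.607), VTI1A at 3210 ± 148 and 2626 ± 96.2 bases (adjusted p = 0.584) and ZBTB20 at 12980 ± 345 and 10580 ± 1670 bases (adjusted p = 0.731; SD, n = 3 each, limma). In the libraries labelled RPL3 KO the log2 difference was above 0 for ZBTB20 (0.49, adjusted p = 0.344 in limma), LPP (0.49, adjusted p = 0.653) and RABGAP1L (0.14, adjusted p = 0.452), and below 0 for DLG2 (-0.56, adjusted p = 0.67) and VTI1A (-0.26, adjusted p = 0.617). The median log2 difference over the members was -0.02 in HCT 116p53-/- cells and 0.01 in the libraries labelled RPL3 KO, against 0 over all genes.

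Between the lines, the length differed for 5 of the 35 members with vehicle, where 3.29% of genes were called, a comparison added after the data were seen. ZBTB20 had 13163, 13198 and 12583 bases in HCT 116p53-/- cells and 5064, 5734 and 5354 bases in the libraries labelled RPL3 KO (log2 difference -1.27, adjusted p = 0.00146 in limma). VPS13B, with 10486, 11340 and 11697 bases against 5396, 7309 and 6539 bases, had -0.81 (adjusted p = 0.00768). DIAPH2, with 7539, 7081 and 6937 bases against 4642, 4530 and 4726 bases, had -0.63 (adjusted p = 0.000724). The transcripts counted for these genes were thus shorter in every library labelled RPL3 KO. VTI1A was at -0.64 (adjusted p = 0.0123), and TCF4 was longer, at 2.00 (adjusted p = 0.0015), from the few counts it had in HCT 116p53-/- cells. With Act D it was again 5 members, where 4.22% of genes were called: VPS13B at -0.63, DIAPH2 at -0.49, VTI1A at -0.61, TRAPPC9 at -0.55 and WWOX at -0.43, all shorter in the libraries labelled RPL3 KO. ZBTB20 and TCF4 were not called with Act D, where the means of ZBTB20 were 10580 and 7622 bases.

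Genes known to act on long transcription units were read as the surrounding pathway: topoisomerases, the kinases CDK12 and CDK13 and their cyclin, elongation factors of the PAF and SPT complexes, and factors that keep the polymerase from ending early. Of the 32 on the list all were tested. In HCT 116p53-/- cells 6 were higher and 4 lower with Act D, with a median of 0.12, where 7.59% of all genes were higher and 11.1% lower. For the second line the numbers were 3 and 8 and the median -0.07, where 3.51% of all genes were higher and 8.40% lower. In the test of the difference between the responses 0 were higher and 5 lower, which were CDK12, CDK13, SCAF8, ELL and ELL2, where 3.30% and 3.23% of all genes were. CDK12, whose kinase activity keeps long genes from early polyadenylation, was not called in HCT 116p53-/- cells (-0.08, adjusted p = 0.595) and was lower in the libraries labelled RPL3 KO (-0.60, adjusted p = 0.000287, edgeR), a difference between the lines of -0.52 (adjusted p = 0.0207). SCAF8, an anti-terminator, was lower in both lines (-0.31, adjusted p = 0.0191, and -0.75, adjusted p = 4.16e-05), as was the histone methyltransferase SETD2 (-0.43, adjusted p = 0.00543, and -0.65, adjusted p = 0.000415). TDP1, which repairs trapped topoisomerase, was lower in both as well (-0.59, adjusted p = 0.000871, and -0.39, adjusted p = 0.0239), and so was CDC73 of the PAF complex (-0.33, adjusted p = 0.0209, and -0.29, adjusted p = 0.0492). The elongation factor ELL2 was higher in HCT 116p53-/- cells (0.49, adjusted p = 0.00166) and not called in the libraries labelled RPL3 KO (-0.20, adjusted p = 0.165), a difference of -0.69 (adjusted p = 0.00439). The other 5 that were higher in HCT 116p53-/- cells were CCNT1 (0.60), a cyclin of the elongation kinase P-TEFb, SCAF4 (0.54), an anti-terminator, CCNT2 (0.46), another cyclin of P-TEFb, SNRNP70 (0.35), a protein of the U1 particle, and CDK9 (0.34), the kinase of P-TEFb, with adjusted p-values between 0.000292 and 0.0375. Those higher in the libraries labelled RPL3 KO were CCNT2 (0.34), the termination factor PCF11 (0.51) and CTR9 (0.39) of the PAF complex.

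The 8 members with a mean under 1 CPM were DMD, MACROD2, NAALADL2, MAGI2, AUTS2, GPC6, CDH13 and PARD3B. Their means were between 0.187 and 0.991 CPM over the 12 libraries. Of these 8, 5 were among the 9 members placed here in the fragile site group. In 2 of the 8, PARD3B and NAALADL2, the vehicle libraries of the lines did not overlap, a choice made after their values were seen. Over all genes tested, the vehicle libraries of the second line lay all above those of the first for 35.5% and all below for 37.0%. PARD3B, a relative of the polarity scaffold PARD3, was at 0.843, 0.482 and 0.362 CPM in HCT 116p53-/- cells and at 1.12, 1.25 and 1.22 CPM in the libraries labelled RPL3 KO with vehicle. NAALADL2 was at 0.324, 0.620 and 0.906 CPM and at 0.161, 0.05 and 0.0675 CPM with vehicle, from 5, 9 and 15 and from 2, 1 and 1 counts. It was listed at 0 in 2 libraries labelled RPL3 KO with Act D, where 3 counts correspond to 0.218 and 0.343 CPM. DMD, the gene of dystrophin and the longest of the 43, was at 0.130, 0.344 and 0.664 CPM in HCT 116p53-/- cells with vehicle, a spread wider than the distance between any of its group means.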

How the data were processed

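Total RNA of 12 cultures, 3 in each of 4 groups, had been sequenced by the authors with a TruSeq kit as paired ends on a NovaSeq. The deposited files hold RSEM (1.2.25) expected counts and TPM on hg38, made by the authors with one gene-level table for each of 11 libraries and an isoform-level table for vehicle replicate 2 of HCT 116p53-/- cells, which was summed per gene here. Expected counts need not be whole and were rounded. The deposited abundance-weighted transcript length, in bases, is another value of these files. Before that the authors had trimmed adapters and poor-quality ends and discarded reads of contaminants such as ribosomal RNA, and RSEM had assigned the rest to Ensembl transcripts and genes. The Ensembl release and the aligner run by RSEM were not given in the sources used here.

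Of 33990 genes with a count, the 15692 that passed the filterByExpr step of edgeR were fitted with edgeR 4.0.16 (quasi-likelihood test, TMM scaling, 4 groups, all 12 libraries), and p-values were adjusted by Benjamini-Hochberg over all genes tested, with a threshold of 0.05. CPM were scaled by TMM. Log2 transcript length was tested with limma 3.58.1 over 13329 genes with a mean of at least 1 CPM and a count in every library. DESeq2 1.42.0, R 4.3.3, Python 3.11.15, pandas 2.3.3 and scipy 1.17.1 were used. Spans and exons came from GENCODE v44, which matched 60261 of 60617 identifiers. GC content was counted on the hg38 bases of each span, and promoters came from RefSeq. All fitting code was tested on simulated data.

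Values in each library were given for the 5 longest members, the largest changes with Act D (6 in each direction in each line) and between lines with vehicle (5 in each direction), and the 4 smallest p-values of the difference between responses. The members and the gene lists were chosen with earlier results of these data known. Alternatives covered the tool, scaling, count filter, groups in the fit, a replicate block, each library left out in turn, span classes and the expression minimum. The labels call the 3 libraries of a group biological replicates. Precision rests on 3 libraries a group and on totals of 10087925 to 21138886 counts; counting intervals at 95% cover counting error only. Protein sequences were not used here.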

Additional observations from a re-analysis of the deposited data

Results flagged for a closer look

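The response to Act D differed between the lines, by the interaction test of the edgeR fit, for the 18 members given here with the log2 fold change in the libraries labelled RPL3 KO minus that in HCT 116p53-/- cells. All 18 differences were above 0, where 3.30% of all genes tested were called higher. Among members of polarity, adhesion and the cytoskeleton they were 1.37 for the junction scaffold MAGI1, 1.07 for LPP, 1.01 for PARD3, 0.89 for PTPRG, 0.75 for DIAPH2, 0.46 for PTK2 and 0.42 for DOCK1. Among members of vesicle traffic they were 0.75 for VPS13B, 0.74 for VTI1A, 0.73 for RABGAP1L, 0.71 for TRAPPC9, 0.70 for SBF2, 0.64 for TBC1D5 and 0.61 for EXOC4. The nuclear regulators ZBTB20 and FTO had 1.31 and 0.68, and MAD1L1 and FAF1 had 1.38 and 0.88. The adjusted p-values ran from 9.76e-05 for MAGI1 to 0.0347 for TRAPPC9 (edgeR). PTPRG, LPP, DIAPH2 and TBC1D5 were called in opposite directions in the lines, MAGI1, VTI1A and PTK2 were lower in both, and the other 11 were lower in HCT 116p53-/- cells and not called in the libraries labelled RPL3 KO. In 19 alternatives the calls of DOCK1, PTK2 and TRAPPC9 were lost in most, holding in 8, 9 and 9, and that of TBC1D5 held in 18, while the other 14 held in each. The share of mitochondrial counts was higher with Act D in both lines, and its part in these differences was not tested, although 18 members were again called with mitochondrial genes left out.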

How the results depend on the processing

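With 3 libraries a group and few counts for TCF4, DLG2, FHIT and IMMP2L, small changes of low genes could be missed. The median of the members in HCT 116p53-/- cells was -0.547 with library size alone, which put the median of all genes at -0.081, and -0.509 with only the groups compared (33 members tested), and ran from -0.513 to -0.433 with 1 library left out. The median of all genes of over 300 kb there was -0.446 with library size alone, -0.443 at 5 CPM or more and -0.18 over 1000 kb. In the libraries labelled RPL3 KO the median of the members was 0.059 with library size alone and 0.217 with upper quartile scaling, and 0.085 to 0.203 with 1 library left out. The median of all genes of over 300 kb there was -0.035 with library size alone and 0.126 with upper quartile scaling, 0.143 over 500 kb and 0.211 over 1000 kb. The members called there numbered 6 with only the groups compared and 3 to 8 with 1 library left out, 3 being without vehicle replicate 1 of that line. With 1 library left out, 18 to 26 members were called in HCT 116p53-/- cells, 15 to 18 for the difference between responses, 26 to 29 between lines with vehicle and 29 to 30 with Act D, and 0 for transcript length with Act D (limma). The cause of these moves was not tested.

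Pairing by replicate number was not evident over all groups, and 3 libraries a group cannot exclude it. Deviations of same-numbered libraries correlated between -0.328 and 0.168 (18 pairs), those of other pairs between -0.303 and 0.276 (36 pairs). Between vehicle and Act D, same-numbered libraries correlated at 0.088, 0.168 and 0.167 in HCT 116p53-/- cells. In the libraries labelled RPL3 KO they correlated at -0.061, -0.034 and -0.186. Of the 6 vehicle libraries, 2 correlated best with their own number. With the replicate block, 24 members were called in HCT 116p53-/- cells, 6 in the libraries labelled RPL3 KO, 16 for the difference, 27 between lines with vehicle and 29 with Act D.

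The sign turned for some members that were not called, and the cause was not tested. With library size alone it turned with Act D in HCT 116p53-/- cells for DLG2 (-0.096) and MSRA (-0.083), in the libraries labelled RPL3 KO for RAD51B (-0.057), PARD3 (-0.054), DOCK1 (-0.035), BABAM2 (-0.013) and TCF4 (-0.08), between lines with vehicle for RABGAP1L (-0.027) and MAD1L1 (-0.046), and with Act D for FHIT (-0.175) and FBXL17 (-0.073). Without a filter it turned for DLG2 (-0.003), RAD51B (-0.007), PARD3 (-0.001) and TCF4 (-0.031), for TCF4 also with only the groups compared (-0.01) and without mitochondrial genes (-0.008), and for the difference in SMYD3 with upper quartile scaling (0.009). With 1 library left out, the fold changes in HCT 116p53-/- cells ran from -0.214 to 0.32 for DLG2, from -0.132 to 0.119 for MSRA, from -0.2 to 0.064 for WWOX, from -0.553 to 0.142 for DPYD, from -0.265 to 0.133 for IMMP2L and from -0.148 to 0.079 for SMYD3. In the libraries labelled RPL3 KO they ran from -0.119 to 0.158 for RAD51B, from -0.039 to 0.106 for PARD3, from -0.057 to 0.153 for BABAM2 and from -0.141 to 0.159 for TCF4. The difference in SMYD3 ran from -0.172 to 0.055, MAD1L1 between lines with vehicle from -0.042 to 0.373 and FHIT between lines with Act D from -0.187 to 0.3.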
